A study of Rubus idaeus with 6 samples.

Results

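A group of 223 gene models, of the 19951 in the deposited table, was read far more in one ‘Wakefield’ bud library than in the other libraries of that cultivar. Members were chosen by their measured level. The rule asked for a normalized count of at least 10 in ‘Wakefield’ library 59 that was at least 4 times the value in library 60 and at least 4 times the value in library 61, and left out a pair of SEPALLATA3 (SEP3) gene models. A normalized count is the number of read fragments assigned to a gene model, divided by a size factor that sets the 6 libraries to a common scale. The difference between library 59 and libraries 60 and 61 was fixed by this rule and is given as a description, with no test. The ‘Heritage’ levels, the chromosomes and the described functions of the members were not used by the rule.

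RNA was sequenced from axillary buds of red raspberry (Rubus idaeus) taken 5 to 10 nodes below the shoot apex. The annual-fruiting (AF) cultivar ‘Heritage’ and the biennial-fruiting (BF) cultivar ‘Wakefield’ were grown together in the field, with no treatment, and all buds were collected on November 5, in the southern spring. Each cultivar had 3 biological replicates, numbered 59 to 61 for ‘Wakefield’ and 62 to 64 for ‘Heritage’. One cultivar stands for each fruiting habit and one date was sampled, so that fruiting habit and any other difference between the cultivars cannot be told apart. How many plants or buds made up a replicate is not stated in the labels or methods, and the numbers do not pair libraries across cultivars.

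An axillary bud is a small dormant or growing shoot in the axil of a leaf, and in raspberry it holds a meristem that can form leaves or flowers. In AF raspberry the upper buds of a cane flower in the season in which the cane grew, whereas in BF raspberry buds overwinter before they flower. The level of a transcript in a bulk bud sample depends both on how many cells of a type it holds and on how much RNA each of them carries, and these cannot be told apart here.

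The reads behind the values came to between 7345603 and 14977596 per library, lowest in ‘Wakefield’ library 60 and highest in library 61, with 12319729 in library 59. One read was worth 0.939 normalized counts in library 59, 1.56 in library 60 and 0.743 in library 61. Over the 17860 gene models whose mean reached 10, library 59 was nearer to its own cultivar than to ‘Heritage’. It was slightly farther from libraries 60 and 61 than these were from one another. Its median absolute log2 difference was 0.25 from library 60 and 0.25 from library 61, beside 0.21 between libraries 60 and 61 and 0.37 to 0.47 between library 59 and the ‘Heritage’ libraries. The dormancy-associated gene DRM1 (Ro03_G06544), looked up after other values were seen, was at 5252, 6782 and 6957 in libraries 59, 60 and 61 and at 10678, 7903 and 7677 in libraries 62, 63 and 64. TCP domain protein 12 (Ro04_G02625), looked up with it, was at 31.0, 42.0 and 85.4 in libraries 59, 60 and 61. It was at 53.4, 36.3 and 47.6 in libraries 62, 63 and 64.

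The same rule was applied to every library within its own cultivar. Library 59 gave 225 gene models, library 60 gave 36 and library 61 gave 129, whereas ‘Heritage’ libraries 62, 63 and 64 gave 14, 6 and 7. The 225 include both SEP3 gene models, which encode MADS-box factors of floral organ identity and are left out of the 223. ‘Wakefield’ library 59 therefore held the most such gene models, but the count for library 61 was also above that of any ‘Heritage’ library. In the opposite direction, 36 gene models were at least 4 times lower in library 59 than in both other ‘Wakefield’ libraries that held at least 10, beside 69 for library 60 and 57 for library 61.

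**Figure D1:**
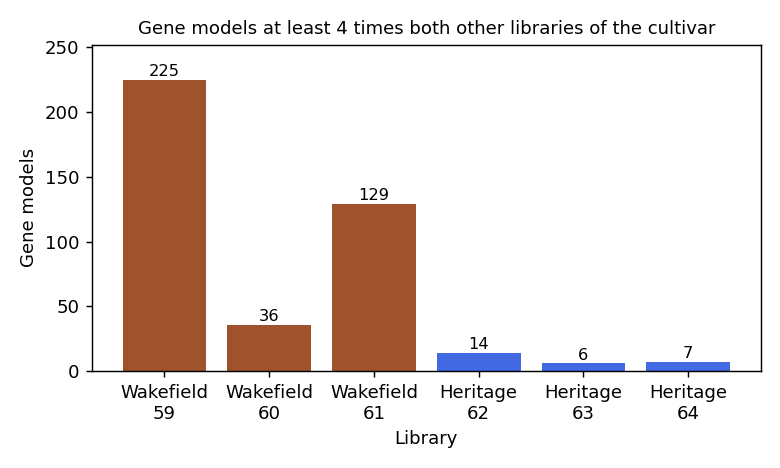
Number of gene models (y axis) that in each library (x axis) had a normalized count of at least 10 and at least 4 times that of both other libraries of the same cultivar. The 3 ‘Wakefield’ libraries gave 225, 36 and 129 gene models and the 3 ‘Heritage’ libraries 14, 6 and 7.

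Members were less abundant than gene models in general in all 6 libraries. Their median normalized count was 47.0 in library 59, 4.67 in library 60 and 6.68 in library 61, and 41.9, 31.8 and 27.6 in ‘Heritage’ libraries 62, 63 and 64. The median over all gene models was between 211 and 221 in each library. In library 59 the members ran from 10.3 to 19592, with 105 at 50 or more, 71 at 100 or more and 11 at 1000 or more. In library 60, 31 members had no read, and in library 61 there were 8. All 3 ‘Heritage’ libraries held at least 10 for 150 members, and none of them reached 10 for 45.

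Added together, the members took 0.749% of the normalized counts of library 59, 0.107% of library 60 and 0.0911% of library 61. In ‘Heritage’ they took 0.886%, 0.800% and 0.741%. The most abundant member, Ro04_G36397, held 19592 of the sum of 86625 in library 59 and 38648 to 41566 of the sums of 85979 to 105050 in ‘Heritage’. Without it, a comparison added after seeing the data, library 59 summed to 67033 and libraries 62, 63 and 64 to 63483, 53703 and 46019. The sum in library 59 was thus within the ‘Heritage’ range with this member and above it without, and libraries 60 and 61 were below ‘Heritage’ either way, with 8042 and 5810 without it.

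Over the members with reads in library 60 or 61, the ratio of library 59 to the higher of these had a median of 5.90. It ran from 4 to 50.6, and the 2 members at 0 in both libraries have no ratio. Many members sat near the limit, with 69 at a ratio of 4 to 5, beside 144 gene models at a ratio of 3 to 4 that were left out. Among gene models with at least 50 in library 59, the nearest pair inside the limit had 75.1, 18.7 and 12.6 (ratio 4.03) and 581, 73.1 and 143 (ratio 4.06) in libraries 59, 60 and 61. The nearest pair outside had 62, 15.6 and 6.68 (ratio 3.99) and 55.4, 14.0 and 5.94 (ratio 3.96). The latter is an internal NAD(P)H dehydrogenase of mitochondria (ATNDI1, Ro03_G05943), with 37.7, 19.1 and 36.2 in ‘Heritage’. On the recovered reads, the lower bound of a 95% counting interval of the ratio (from the exact binomial interval, counting error only) was at least 4 for 59 members, at least 2 for 157 and at least 1 for 219. Members were chosen by this same ratio, which favours high bounds, so the bounds are a description and no test of the ratio.

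The ‘Heritage’ libraries split the members into 3 classes. For 105 members (47.1%) every ‘Heritage’ library was above library 59 or no more than 2-fold below it. For 43 members (19.3%) every ‘Heritage’ library was at most 2 times the higher of libraries 60 and 61. The other 75 (33.6%) lay between these levels or were uneven among the ‘Heritage’ libraries. The sizes of the classes follow the fold that draws them. At a fold of 1.5 there were 85 near or above library 59, 31 near libraries 60 and 61 and 107 in between, and at a fold of 3 there were 130, 59 and 34.

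In the class near or above library 59, the median was 56.4, 4.67 and 8.17 in libraries 59, 60 and 61 and 129, 86.3 and 79.0 in libraries 62, 63 and 64. In the class near libraries 60 and 61, the medians were 40.4, 6.22 and 6.68, followed by 5.23, 3.63 and 4.76. In the class in between they were 42.3, 3.11 and 4.46, followed by 20.9, 13.6 and 10.5. The level in library 59 was thus similar among the classes, while that in ‘Heritage’ differed, which is how the classes were drawn.

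**Figure D2:**
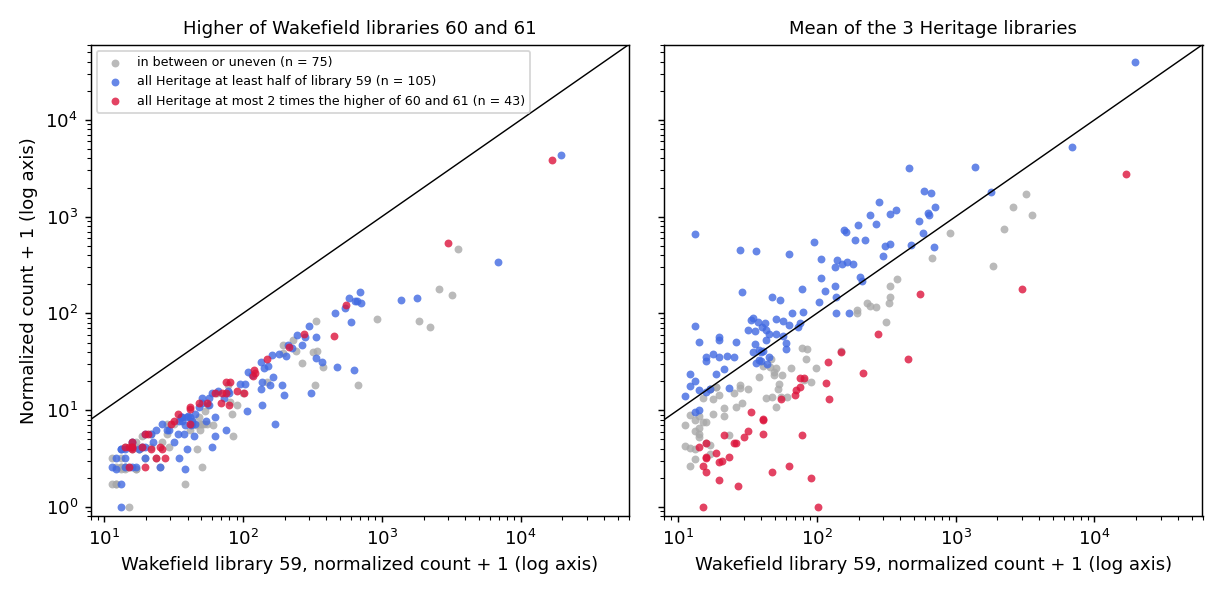
Normalized count + 1 of the 223 members in ‘Wakefield’ library 59 (x axis, log) against the higher of libraries 60 and 61 (left) and the mean of the 3 ‘Heritage’ libraries (right), both on log y axes. Each point is a member coloured by its class (105, 75 and 43 members) and the line marks equal values; on the left all points lie below the line because the rule put them there, and on the right they lie on both sides of it.

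Library 59 was above all 3 ‘Heritage’ libraries for 116 members, below all 3 for 62 and within their range for 45. Libraries 60 and 61 were both below all 3 ‘Heritage’ libraries for 172 members and both above them for 6. The ratio of the ‘Heritage’ mean to library 59 had a median of 0.692, and 27 members were at least 4 times higher in library 59 than in any ‘Heritage’ library. At the other end, every ‘Heritage’ library was at least 2 times library 59 for 26 members. Library 59 was thus the highest of all 6 for 116 members, and libraries 60 and 61 were the lowest pair for 172. The rule chose library 59 as high and libraries 60 and 61 as low, so these counts follow from it in part. The like shares over all gene models were not counted, and nothing about the members is read from these numbers.

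The sets chosen in the same way from the other ‘Wakefield’ libraries differed in their ‘Heritage’ level. Of the 129 gene models of library 61, 76 (58.9%) had every ‘Heritage’ library no more than 2-fold below library 61, and 24 (18.6%) had every ‘Heritage’ library within 2 times of the higher remaining ‘Wakefield’ library. Of the 36 of library 60, these numbers were 2 (5.56%) and 22 (61.1%). Library 60 was the shallowest, and its set had a median of 19.4 in that library, beside 47.0 for the members in library 59 and 29.0 for the set of library 61. The shares for libraries 59 and 61 were thus close to one another and far from that of library 60; the difference was not tested and the part of depth in it was not tested.

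Gene models read almost only in ‘Heritage’ were mostly as low in library 59 as in libraries 60 and 61. Of the 46 gene models with at least 50 in every ‘Heritage’ library and at most 5 in libraries 60 and 61, library 59 held at most 5 for 34 and at least 10 for 9. Its median there was 1.88, and the median share of the ‘Heritage’ mean was 1.73%, with a highest value of 83.7%. Of the 46, 5 are members, named here after their values were seen. Ro03_G32480 had 62 in library 59 and 62.7 to 80.6 in ‘Heritage’, and Ro07_G27364 had 12.2 in library 59 and 634 to 704 in ‘Heritage’. The others were Ro04_G37180, Ro04_G23430 and Ro02_G26457.

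The order of libraries 60 and 61 was bounded by the rule but not set by it. Library 61 was above library 60 for 137 members, library 60 was above library 61 for 84 (37.7%) and 2 were at 0 in both (Ro04_G02694 and Ro02_G26457, the latter named after its values were seen). The median log2 ratio of library 60 to library 61 was -0.34. Over the 17635 gene models with a ‘Wakefield’ mean of at least 10, library 60 was the higher in 50.8%, with a median of 0.01. Members are less abundant than the typical gene model and library 60 was the shallowest, and the part of either in this order was not tested. By class, library 60 was the higher for 28.6% of the members near or above library 59 in ‘Heritage’ and 34.7% of those in between. It was the higher for 65.1% of those near libraries 60 and 61, a class itself drawn from the higher of these libraries.

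‘Heritage’ library 62 was the highest of its cultivar for 140 members (62.8%), library 63 for 48 (21.5%) and library 64 for 35 (15.7%). Over all 17860 gene models whose mean reached 10 the shares were 42.3%, 23.2% and 34.5%. The members also spread more within ‘Heritage’ than gene models in general. The ratio of the highest to the lowest ‘Heritage’ library had a median of 1.82 over members, beside 1.22 over all these gene models, and of 1.69 over the 103 members with at least 50 in library 59 and reads in every ‘Heritage’ library. Members are less abundant than the typical gene model, and the part of counting error in this spread was not tested. Only Ro03_G32204, named after its values were seen, met the 4-fold rule within ‘Heritage’ as well, with 221, 42.7 and 36.2 in libraries 62, 63 and 64 and 194, 37.3 and 37.9 in libraries 59, 60 and 61.

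Between-library rank order over the 223 members, given as a description across genes that share their length and abundance in every library, had a Spearman coefficient of 0.945 to 0.965 within ‘Heritage’. It was 0.733 to 0.740 between library 59 and the ‘Heritage’ libraries, 0.717 to 0.731 for library 61 and 0.560 to 0.577 for library 60.

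Functions were available only for gene models of the mapped intervals on LG3 and LG4, in the part of the study's gene list held here, which pairs 1998 gene models with positions on the ORUS 4115-3 v3.0 assembly of black raspberry (R. occidentalis). It holds 25 members, 15 on LG3 and 10 on LG4. Of these, 14 have a described function, 6 have an Arabidopsis orthologue without a description and 5 have neither. The other 198 members are given by number only. Roles below are those known in Arabidopsis.

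The most abundant of the described members was FLAGELLIN-SENSITIVE 2 (FLS2, Ro03_G13423, LG3 at 39286625 bp), the receptor kinase at the cell surface that binds bacterial flagellin and starts defence signalling. It had 542 in library 59, 112 in library 60 and 83.2 in library 61, and 968, 1008 and 756 in libraries 62, 63 and 64. Every ‘Heritage’ library was above library 59, which in turn was above both other ‘Wakefield’ libraries. ESE1 (ETHYLENE AND SALT INDUCIBLE 1, Ro03_G05189, LG3 at 40544233 bp), an ethylene response factor that acts in salt responses, had 49.8, 10.9 and 9.65, followed by 83.7, 47.2 and 47.6. Library 59 thus lay within the ‘Heritage’ range.

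A cytochrome P450 of family 76 (CYP76C3, Ro04_G36268, LG4 at 6161199 bp), from a subfamily known for oxidation of monoterpene alcohols, had 181, 34.2 and 37.1 in ‘Wakefield’ and 471, 259 and 246 in ‘Heritage’. This was again the order of FLS2, with ‘Heritage’ highest, library 59 next and libraries 60 and 61 lowest. SERINE CARBOXYPEPTIDASE-LIKE 34 (Ro04_G12489, LG4 at 274122 bp), of a family of secreted hydrolases and acyltransferases, had 228, 51.3 and 52.7, followed by 151, 105 and 126. Here library 59 was the highest of the 6 and ‘Heritage’ lay between it and the other ‘Wakefield’ libraries.

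In another 3 described members every ‘Heritage’ library was at most 2 times the higher of libraries 60 and 61. KAT1 (Ro03_G13450, LG3 at 39145402 bp), an inward potassium channel of guard cells, had 69.5, 10.9 and 14.1 in libraries 59, 60 and 61 and 15.7, 14.5 and 15.2 in libraries 62, 63 and 64. The spread among these 5 lower libraries was small beside the gap to library 59. A protein with an NAD(P)-binding Rossmann fold (Ro04_G36214, LG4 at 4683953 bp), a fold shared by many reductases, had 74.2, 14.0 and 5.20, followed by 23.0, 15.4 and 22.9. Its ‘Heritage’ values were thus all above libraries 60 and 61. A putative transmembrane protein with a domain of unknown function (Ro04_G07115, LG4 at 6749463 bp) had 24.4, 3.11 and 2.23, followed by 5.23, 2.73 and 2.86. All of them belong to the class near libraries 60 and 61, and by their values so would both SEP3 gene models that the rule left out. Ro04_G07112 had 221, 29.5 and 7.43, followed by 7.32, 6.36 and 11.4. Ro04_G02528 had 356, 68.4 and 36.4, followed by 99.4, 103 and 81.9, so that only the former was at a like level in all 3 ‘Heritage’ libraries and library 61.

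Lysyl-tRNA synthetase 1 (ATKRS-1, Ro03_G05265, LG3 at 40162221 bp), which charges tRNA with lysine for translation, had 82.7, 4.67 and 8.17 in ‘Wakefield’ and 39.8, 30.9 and 26.7 in ‘Heritage’. A nodulin MtN3 family protein (Ro04_G23123, LG4 at 6953017 bp), from the family of SWEET sugar transporters, had 27.2, 4.67 and 2.23, followed by 20.9, 8.18 and 21.9. In both, all ‘Heritage’ libraries lay between library 59 and the other ‘Wakefield’ libraries.

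The remaining described members were near the lower limit of the rule, with 11.3 to 16.0 in library 59. The NAC transcription factor ANAC042 (Ro03_G10889, LG3 at 37150215 bp), linked to leaf ageing and stress tolerance, had 16.0, 0 and 3.71 in ‘Wakefield’ and 22.0, 19.1 and 5.71 in ‘Heritage’. IAA34 (INDOLE-3-ACETIC ACID INDUCIBLE 34, Ro04_G36226), of the Aux/IAA repressors of auxin response, had 15.0, 1.56 and 2.97, followed by 6.28, 4.54 and 0. Both were uneven within ‘Heritage’. A VQ motif protein (Ro04_G02694), from a family whose members bind WRKY factors, had 14.1 in library 59 and 7.32, 6.36 and 5.71 in ‘Heritage’, with no read in libraries 60 and 61. At a floor of 3 reads over both, that allows a normalized count of up to 1.51. Fucosyltransferase 1 (Ro04_G00032), which adds fucose to the cell wall polymer xyloglucan, had 12.2, 0 and 1.49, followed by 9.42, 5.45 and 5.71. A helicase with a zinc finger (Ro04_G00212) had 11.3, 1.56 and 0.743, followed by 7.32, 1.82 and 0. At these levels a value rests on a few reads, and the ratios are correspondingly imprecise.

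**Figure D3:**
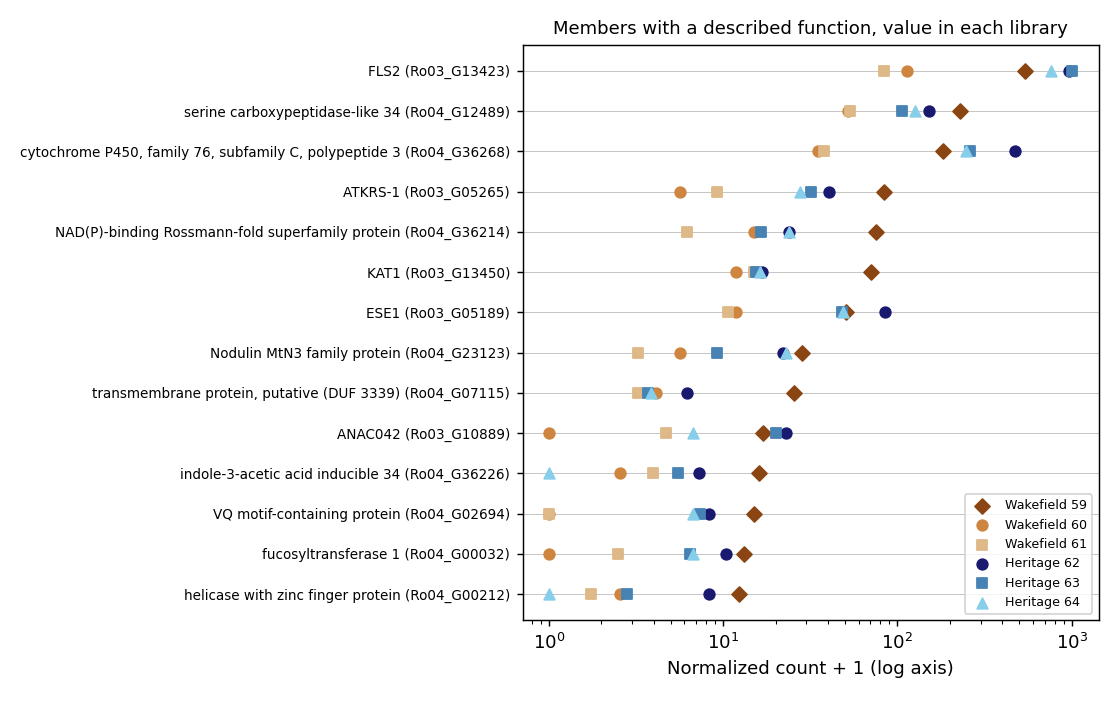
Normalized count + 1 (x axis, log) in each of the 6 libraries for the 14 members with a described function, ordered by their level in library 59. Library 59 (diamonds) is to the right of libraries 60 and 61 in every row, by the rule, while the ‘Heritage’ points (blue) lie around or above it for FLS2 and ESE1 and beside libraries 60 and 61 for KAT1.

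Members with a position but no described function included several of high level on LG3, named after their values were seen. Ro03_G06469 (41310137 bp) had 1796, 70.0 and 144 in ‘Wakefield’ and 2072, 1630 and 1666 in ‘Heritage’. Ro03_G06471 (41286201 bp), 23936 bp from it, had 242, 14.0 and 58.7, followed by 1403, 835 and 900. In both, libraries 60 and 61 were below the other 4 libraries. Another pair, Ro03_G15803 and Ro03_G15805, start 14205 bp apart and share the orthologue AT1G11770. Ro03_G15803 had 332, 15.6 and 17.1 in ‘Wakefield’ and 142, 175 and 62.8 in ‘Heritage’. Ro03_G15805 had 35.7, 0 and 6.68, followed by 38.7, 29.1 and 21.9. Reads of such related copies may be divided between them by the alignment, so the level of each is uncertain. Ro03_G06490 (orthologue AT4G27450) had 369, 4.67 and 30.4 in ‘Wakefield’ and 2142, 976 and 432 in ‘Heritage’, a spread of several-fold within each cultivar.

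Among members without a described function and with at least 50 in library 59, those lowest and highest in ‘Heritage’ relative to library 59 show the range. Ro03_G18613 had 101, 14.0 and 0 in libraries 59, 60 and 61 and no read in any ‘Heritage’ library. Ro04_G36473 had 89.2, 0 and 14.9, followed by 1.05, 0 and 1.90. These were raised in library 59 and at or near 0 in ‘Heritage’. Ro03_G32684 had 62, 1.56 and 7.43, followed by 603, 304 and 334. Ro01_G29706 had 457, 9.33 and 99.5, followed by 4292, 2854 and 2423. In the latter pair the ‘Heritage’ mean was 6.67 and 6.97 times library 59, and library 60 was the lowest of the 6.

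Most of the 11 members with at least 1000 in library 59 had a lower mean in ‘Heritage’, though Ro03_G06469 was near equal (0.996). The 11 were picked by a high value in library 59, which favours a low ratio, so nothing is read from this. The ratio of the ‘Heritage’ mean to library 59 ran from 0.0600 to 2.38 with a median of 0.492, and was above 1 for Ro04_G36397 and Ro04_G36573, named after their values were seen. Ro02_G35289, named in the same way as the second most abundant member, had 16952, 3807 and 795 in ‘Wakefield’ and 2674, 2901 and 2666 in ‘Heritage’. All ‘Heritage’ libraries were there between libraries 60 and 61.

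Members lay on all 7 chromosomes, read from the prefix of the gene model name. LG1 held 25, LG2 30, LG3 38, LG4 39, LG5 30, LG6 30 and LG7 31. As shares of the members, LG4 held 17.5% and LG6 13.5%, beside 13.0% and 18.7% of the 17662 gene models with at least 10 in library 59. Members were 1.69% of those gene models on LG4, 0.907% on LG6 and 1.26% over all chromosomes. Members near or above library 59 in ‘Heritage’ were found on every chromosome, from 10 on LG6 to 19 each on LG3 and LG4. Without the longest run of neighbouring members, LG4 held 30 of 214 (14.0%).

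**Figure D4:**
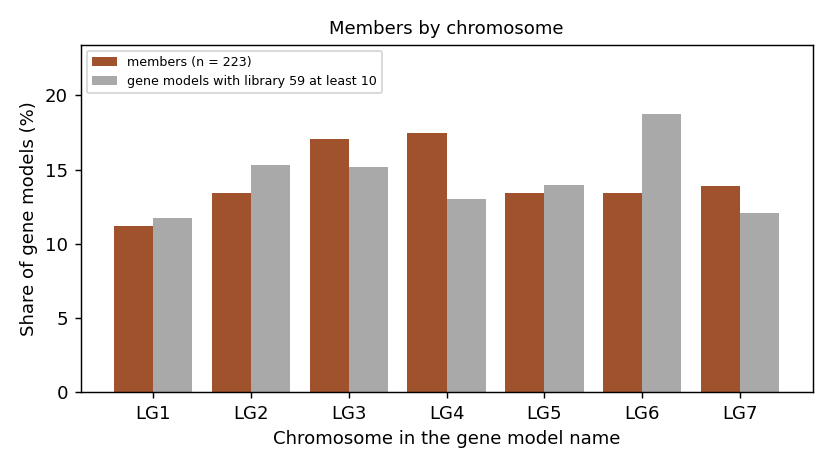
Share in percent (y axis) of the 223 members (brown) and of all 17662 gene models with at least 10 in library 59 (grey) on each chromosome (x axis). The bars of LG4 (17.5% and 13.0%) and LG6 (13.5% and 18.7%) differ most, in opposite directions.

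Gene models carry numbers that follow position in part. In the interval list, 1869 pairs numbered at most 3 apart had a median distance of 7478 bp, and 92.8% lay within 50000 bp. By this measure 25 members (11.2%) fell into 9 runs of neighbours. The sets of libraries 60 and 61 had 6 of 36 (16.7%) and 18 of 129 (14.0%) in runs, with longest runs of 2 and 4, and those of the ‘Heritage’ libraries had none. The members therefore had no larger share in runs than the other ‘Wakefield’ sets, while their longest run, of 9, was the longest of the 6 libraries.

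This run on LG4, singled out after its values were seen, covers 11 gene models between Ro04_G36394 and Ro04_G36405, which have no position or function in the part of the list held here. Its most abundant member, Ro04_G36397, was also the most abundant of all members, with 19592, 4143 and 4319 in ‘Wakefield’ and 41566, 38648 and 39960 in ‘Heritage’. Ro04_G36394 had 632, 24.9 and 24.5, followed by 911, 1322 and 1039. Ro04_G36403 had 307, 14.0 and 8.17, followed by 519, 511 and 456. In each, the ‘Heritage’ libraries were closely grouped above library 59, and libraries 60 and 61 were far below.

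For 8 of the 9 members the ‘Heritage’ mean was above library 59, and the ratio had a median of 2.04. The exception was Ro04_G36399, with 1860, 21.8 and 83.2 in ‘Wakefield’ and 164, 454 and 296 in ‘Heritage’. Of the 2 gene models of the run that are not members, Ro04_G36402 fell just outside the rule with 914, 126 and 263 (ratio 3.48), followed by 2460, 2537 and 2642. Ro04_G36395 went the other way in ‘Wakefield’, with 30.1, 88.6 and 78.0, followed by 23.0, 34.5 and 54.3. The strand setting of the counting is not stated in the labels or methods, so reads of overlapping neighbours on opposite strands may not be told apart.

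**Figure D5:**
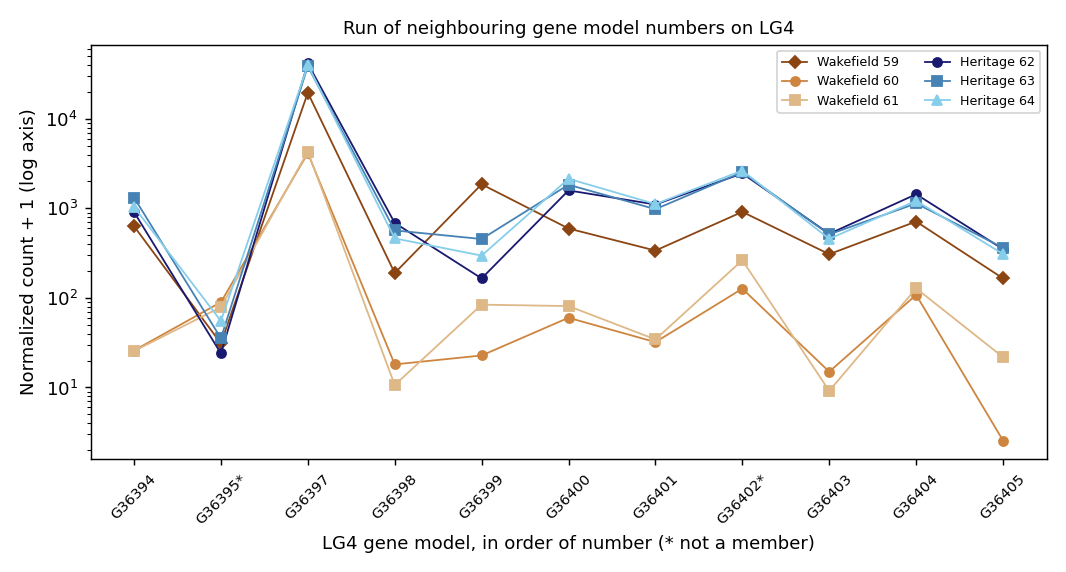
Normalized count + 1 (y axis, log) of the 11 gene models from Ro04_G36394 to Ro04_G36405 in order of number (x axis), with a line for each library. In 8 of the 9 members library 59 (dark brown) runs below the ‘Heritage’ lines and far above libraries 60 and 61; G36399 and the non-member G36395 depart from this order.

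The comparison of the cultivars was fitted over all 19005 gene models with at least 10 in any library, which includes every member by the rule. With limma on log2(normalized count + 1) and an adjusted p under 0.05, 35 members were higher in ‘Heritage’, or 15.7%, beside 15.2% of all gene models tested. Of the members 2 were lower, or 0.897%, beside 16.8% of all. The lower ones, named after their values were seen, were Ro02_G02402 (62, 14.0 and 8.91, followed by 3.14, 0.908 and 0.952) and Ro06_G29133 (47.0, 10.9 and 9.65, followed by 2.09, 0.908 and 0.952). Since the rule used the ‘Wakefield’ values of this contrast, nothing is read from these shares.

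All 3 ‘Heritage’ libraries were above all 3 ‘Wakefield’ libraries for 62 members (27.8%), beside 26.5% of all gene models tested, and below them for 6 (2.69%), beside 26.1%. On the recovered reads edgeR called 37 members higher (background 17.3%) and 4 lower (19.1%), and DESeq2 44 (17.7%) and 6 (19.4%). The 35 higher calls of limma became 139 of the 183 members still tested when library 59 was left out (background 14.4%), with 2 lower (background 16%). This increase follows from the rule, which chose libraries 60 and 61 as low, and nothing is read from it. The higher calls numbered 10 or 8 when library 60 or 61 was left out. Leaving out ‘Heritage’ library 62, 63 or 64 gave 5, 5 and 6. Over all gene models the higher calls fell less in proportion, from 2892 to 1889 and 2273 without library 60 or 61. They numbered 1453, 1215 and 1780 without library 62, 63 or 64. These were 42.0% to 78.6% of the main count over all gene models, beside 14.3% to 28.6% for the members.

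FLS2 was the only described member past the threshold in limma, with a log2 fold change of 2.39 (SE 0.71) and an adjusted p of 0.0497 from limma. It did not pass with edgeR (0.0533) or DESeq2 (0.0600), nor in limma without any one of libraries 60 to 64, and over the alternatives its adjusted p ran from 0.00215 to 0.134. CYP76C3 had a log2 fold change of 2.32 (SE 0.69) and an adjusted p of 0.0512 from limma, and passed with edgeR (0.0459) and DESeq2 (0.0475), with adjusted p-values between 0.00568 and 0.148 over the alternatives. Both values describe gene models whose ‘Wakefield’ spread was fixed by the choice of members.

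Gene lists drawn from the described gene models of the intervals were set beside the members. Over the 1933 gene models of the interval list that were tested, 13.8% were higher and 15.5% lower in ‘Heritage’ by limma. Over all gene models these shares were 15.2% and 16.8%, and the list counts below stand against them. Of the 1998 gene models of the interval list, 25 are members. By the mean of libraries 60 and 61, 104 of the 1998 were more than 2-fold higher in library 59 and 68 more than 2-fold lower, members included. Over all 19951 gene models these were 1048 and 772, with a median log2 difference of -0.01. Of the 4 gene models of floral organ and meristem identity, which are regulators of flower formation, none is a member, since both SEP3 gene models were left out. The SEP3 gene models meet the levels of the rule, so that only the other 2 are described here. UNUSUAL FLORAL ORGANS (UFO, Ro03_G05828), an F-box protein that acts with LEAFY, had 29.1, 4.67 and 8.17 in ‘Wakefield’ and 5.23, 8.18 and 5.71 in ‘Heritage’. AGAMOUS (AG, Ro03_G05331), the factor of stamen and carpel identity, had 84.5, 129 and 36.4, followed by 26.2, 40.9 and 37.1, and was therefore highest in library 60.

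The lists for other tissue gave these levels. The 13 gene models of leaf photosynthesis summed to 21177, 22361 and 16602 in libraries 59, 60 and 61 and to 10845, 10718 and 11688 in ‘Heritage’, with a median log2 difference of library 59 of 0.15. Library 59 was the highest ‘Wakefield’ library for 7 of the 13 and library 60 for 6. Without the light-harvesting gene LHB1B1 (Ro03_G13424), the most abundant of the list and left out after seeing the data, library 59 had the highest sum, with 14968 beside 14347 and 11556. None was a member, and 8 of 13 were lower in ‘Heritage’ by limma, beside 16.8% of all gene models. The 6 gene models of anther and pollen summed to 1541, 1751 and 1499.9 in ‘Wakefield’ and to 1318, 1431 and 1464 in ‘Heritage’, with a median of -0.01 and no member. By limma 1 was higher in ‘Heritage’ and 1 lower. CYP704B1 (Ro04_G36176), an enzyme of the pollen wall, was at 0.939, 1.56 and 0.743 in ‘Wakefield’ and 4.19, 4.54 and 9.52 in ‘Heritage’. The part of other tissue in the members' level was not tested.

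Of the 11 gene models of defence and resistance, 5 were higher and 1 lower in ‘Heritage’ by limma (15.2% and 16.8% over all gene models). None on the list was a member, but its keywords did not match FLS2, the member with a role in defence signalling described above. On the list, 3 were more than 2-fold higher in library 59 than the mean of libraries 60 and 61, with 1 more than 2-fold lower. Over the 1998 gene models of the interval list these numbers were 104 and 68. The list summed to 1906, 1504 and 1340 in ‘Wakefield’ and 3889, 2664 and 2668 in ‘Heritage’, with a median log2 difference of library 59 of 0.25. WRKY6 (Ro03_G13495), a transcription factor of senescence and defence, had 488, 174 and 137, followed by 732, 440 and 392. Library 59 lay within the ‘Heritage’ range, as for ESE1, but at a ratio under the rule.

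The lists for transcription factors, transport, and P450 and secondary metabolism held 2, 1 and 1 members of 75, 48 and 46 gene models. Over the interval list 25 of 1998 are members, so nothing about function is read from the numbers of members in the lists. The lists are keyword matches and hold some gene models of other kinds. The members are ANAC042 and the helicase, which was matched by its zinc finger, among the transcription factors, KAT1 in transport and CYP76C3 among the P450. ESE1 matched none of the keywords, and those for transport did not match the SWEET family member (Ro04_G23123). The median log2 differences of these lists between library 59 and the mean of the other ‘Wakefield’ libraries were -0.01, -0.02 and 0.00. Of the transcription factors 11 were more than 2-fold higher in library 59 and 4 more than 2-fold lower. The 11 include ANAC042, the helicase and both SEP3 gene models, whose excess in library 59 was fixed by the rule. Nothing is read from the difference between these counts. In ‘Heritage’, 16, 7 and 15 gene models of these lists were higher by limma and 5, 7 and 7 lower, of 73, 48 and 44 tested, beside 15.2% and 16.8% of all gene models. The cell wall keywords did not match Fucosyltransferase 1 (Ro04_G00032), which is a member. The lists for cell wall (16 gene models), heat shock (14) and cell cycle and histones (12) held no member, with medians of -0.07, -0.03 and -0.18. By limma 1, 3 and 1 of their gene models were higher in ‘Heritage’ and 4, 1 and 6 lower.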

How the data were processed

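Per the labels and the study's methods, adaptors were trimmed with Trimmomatic and ribosomal RNA was filtered with SortMeRNA. STAR then aligned the reads to black raspberry (R. occidentalis) gene models. The labels name no versions, and neither the counting program nor its use of strand is stated there. The deposited signal values are counts to which the authors had applied 1 DESeq2 size factor for each library. The authors' own fold changes and p-values stand beside them and were not used. Because the gene models are those of another species, sequence differences between the cultivars can change a count. All values (100%) were whole multiples of 1 read within 0.001 of a read, so whole reads were recovered, 7345603 to 14977596 per library, and 2 rows stand for joined gene models. Members and gene lists were chosen with earlier results of these data known.

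The test was limma 3.58.1 in R 4.3.3, two-sided, on log2(normalized count + 1), pseudocount 1, with no covariate and Benjamini-Hochberg adjustment over 19005 gene models with at least 10 in at least 1 library, in place of edgeR, which was planned for raw counts. It measures the spread between the 3 libraries of a cultivar. edgeR 4.0.16 called 3285 higher and 3628 lower in ‘Heritage’ on the recovered reads, DESeq2 1.42.0 called 3368 and 3688, and limma 2892 and 3184. Other alternatives were pseudocounts, filters, scalings, limits of the rule and each library left out. Leaving out the longest run or the most abundant gene model, and scalings for library 62, were added after seeing the data. On simulated counts for this comparison (18577 gene models, of which 200 were changed), limma recovered 14 of 100 changed 2-fold and 88 of 100 changed 4-fold, edgeR 73 and 96, and DESeq2 83 and 98, with 8, 17 and 48 false calls.

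Named genes were the members with a described function, the SEP3 gene models, up to 4 undescribed members at the ends of the ratio of ‘Heritage’ to library 59, the neighbours of the limit, and up to 4 genes of a list; those named outside this rule are marked. The keywords for transcription factors were corrected after one was seen to match the word superfamily. They still match TCP-1/cpn60 chaperonins (Ro04_G02576 and Ro04_G36263). Those for P450 and secondary metabolism also match methyltransferases of rRNA, Rubisco, protein arginine and histones. The list counts are thus of keyword matches. The 10 lists cover only the mapped intervals. Tables were made with Python 3.11.15. Intervals and floors (3 reads) cover counting error only.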

Additional observations from a re-analysis of the deposited data

How the results depend on the processing

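The number of members depended on the limits of the rule. It was 716 at a ratio of 2, 74 at a ratio of 8, 105 with at least 50 in library 59, 71 with at least 100, and 59 with the lower bound of the counting interval at 4 or more, while leaving out library 60 or 61 gave 457 or 415. Other scalings gave 208 and 224. With at least 50 in library 59, the members near or above library 59 in ‘Heritage’ numbered 55, those near libraries 60 and 61 20, and those with library 60 above library 61 33. Leaving out 1 ‘Heritage’ library gave 105 to 120 and 45 to 59 in these classes. Without the longest run, chosen after seeing the data, they were 97 and 43.

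Leaving out 1 library gave 1215 to 2706 gene models higher and 1609 to 3007 lower in ‘Heritage’, and 5 to 139 members higher and 0 to 3 lower. A pseudocount of 10 gave 55 members higher and 1 lower, beside 3177 and 3375 of all gene models. Of members lower, edgeR called 4, DESeq2 6, and limma 0 with at least 10 in at least 3 libraries, which left fewer members tested. The fold changes of the 5 gene models followed through these settings kept their direction. The counts were compared in size only, so no reversal could be read from them. Among the sums, the order of libraries did change. Without LHB1B1, library 59 took the highest ‘Wakefield’ sum of the leaf photosynthesis list. Without Ro04_G36397, the member sum of library 59 went from within the ‘Heritage’ range to above it. The cause of the changes in the counts was not tested. No paired analysis was possible because the groups share no replicate numbers. Depth limits members under 20 in library 59, of which there were 56.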
